A study of Mus musculus with 35 samples.

Results

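The comparison set 5 iPS clones made from PαS cells with 3 factors (3F-PαS-iPS) against 5 clones made from the same source with 4 factors (4F-PαS-iPS), which were 10 of the 35 samples of the series. The clones were chosen by their labels alone. PαS cells are mesenchymal stem cells sorted from mouse bone marrow as PDGFRα+ Sca-1+ CD45- Ter119-, and came from Nanog-reporter mice, in which GFP and puromycin resistance mark cells that express Nanog. The 4F clones had received retroviral (pMX) Oct3/4, Sox2, Klf4 and c-Myc, and the 3F clones had received the same vectors without c-Myc. Cells of both groups also carried a DsRed retrovirus, were grown on SNL feeder cells with LIF, and were taken as GFP+/DsRed- colonies. The 3F cells were put under puromycin later than the 4F cells, so the factors and the time before selection cannot be told apart. RNA of each clone was measured once, on 1-colour Agilent arrays, and each clone is 1 colony, so the spread between clones holds both biological and technical variation.

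c-Myc is a transcription factor that pairs with Max and binds the E-box CACGTG. It is known for raising genes of ribosome assembly, nucleotide and one-carbon synthesis, glycolysis and the cell cycle, and in reprogramming it speeds the early loss of the somatic programme. A fully reprogrammed mouse clone silences its retroviral vectors and relies on its own Oct3/4, Sox2, Nanog and Klf network, which LIF and Stat3 sustain in culture. Levels below are log2 of a probe's signal over the 75th percentile of its array, and differences are the 3F mean minus the 4F mean on that scale, so a negative difference means a lower signal in 3F clones.

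c-Myc itself, the factor in which the groups differ, was covered by 3 probes on chromosome 15 (mouse build mm7). One lies in the coding region (chr15:62063665-62063724) and one spans the end of it (chr15:62064157-62064216), with 44 coding bases, the stop codon and 13 further bases. Both are shown because a vector that carries the coding sequence can give signal on them, whereas the probe in the 3′ untranslated region (chr15:62064256-62064316) lies outside the coding sequence. How far the insert of the vector reaches is not given in the sources used here. The capitals in the sequence of the probe at the end of the coding region mark the stop codon, and both are written 5′ to 3′ as on the array.
c-Myc coding probe: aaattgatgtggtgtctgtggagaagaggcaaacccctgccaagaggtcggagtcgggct
c-Myc probe at the end of the coding region: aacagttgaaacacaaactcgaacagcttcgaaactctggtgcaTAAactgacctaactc

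On the coding probe, 4F-PαS-iPS clones #1 to #5 lay at -1.39, -0.70, -3.38, -2.38 and -3.71. The 3F-PαS-iPS clones lay at -3.79, -3.73, -3.71, -3.44 and -3.66. Clones #1, #2 and #4 of the 4F group were thus above every 3F clone and #3 narrowly so, while 4F-PαS-iPS #5 lay among the 3F clones. The 4F mean was 2.55-fold that of 3F clones (difference -1.35, exact permutation test, two-sided, p = 0.0238, and 0.0714 after adjustment over the 3 probes). Without 4F-PαS-iPS #1 and #4, which shared a slide, the difference was -1.07 (exact permutation p = 0.0536).

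The probe at the end of the coding region gave -0.25, 1.12, -0.96, -0.02 and -1.42 in 4F clones and -1.46, -1.45, -1.28, -0.86 and -1.20 in 3F clones. Again 4F-PαS-iPS #1, #2 and #4 were the highest clones, and the groups overlapped (1.93-fold higher in 4F, exact permutation p = 0.0714, adjusted p = 0.107). On the probe of the 3′ untranslated region the 4F clones lay at 0.75, 0.35, -0.34, 0.90 and -0.90 and the 3F clones at -0.42, -0.55, -0.19, 0.17 and -0.08. That difference was within the spread between clones (1.29-fold higher in 4F, exact permutation p = 0.333), and without 4F-PαS-iPS #1 and #4 its sign turned, to 0.08 (p = 0.804). On the coding probe, 4F clones of the other sources ranged from -2.53 to 3.40 (OP) and from -0.78 to 0.78 (TTF), and their 3F clones from -4.15 to 1.66 (OP) and from -4.14 to -3.06 (TTF). On the probe at the end of the coding region 3F-OP-iPS clones reached 3.41, so a high signal on these probes was also seen in clones that were not given c-Myc. The plot of c-Myc probes shows that the 4F clones were spread over a wide range, which on the coding probe reached down to the 3F level.

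**Figure D1:**
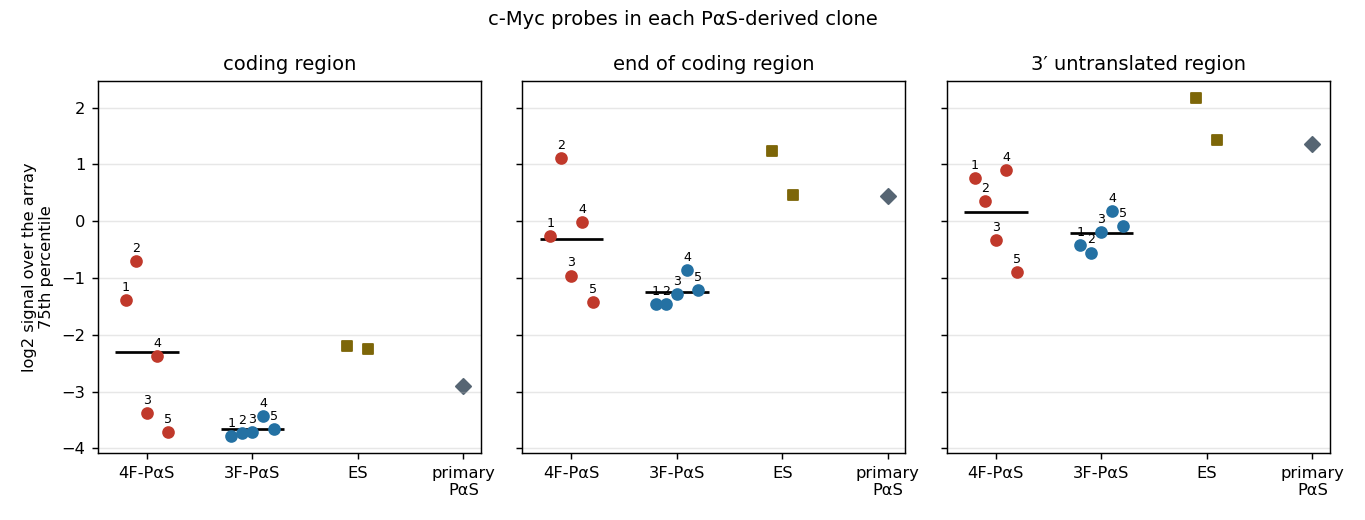
Each point is 1 array, with the log2 signal over the array's 75th percentile on the y axis and numbers giving the clone. Bars are group means. On the coding probe 4F-PαS-iPS #5 (-3.71) lay among the 3F clones (-3.79 to -3.44), and the other 4 clones of its group lay above them.

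The 10 arrays were scanned in 1 session but lay on 5 slides, none of which held both groups, so slide and group cannot be told apart. The 3F clones lay on slides 8 and 9 and the 4F clones on slides 3, 5 and 6. Of the probes, 62.1% to 65.5% were well above background on the arrays of slides 5, 6, 8 and 9, and 56.5% and 56.7% on those of slide 3, which held 4F-PαS-iPS #1 and #4. Values without those clones are therefore given beside many of the genes and lists. The clones fitted their label by ES cell markers but not by every marker. Of the ES cell markers 9 of 9 measured were above background in all 10 clones. Their mean log2 level was 1.75 to 3.33 in 3F and 2.67 to 3.80 in 4F clones, against 4.996 and 3.44 in the ES arrays (lines EB-3 and RF 8) and -7.28 in primary PαS cells. Of 4 measured blood markers Cd34 and Cd52 were above background in all 10 clones and Ptprc and Itgam in none, and of 4 mesoderm markers Eomes and Hand1 in all and Mixl1 in none. All 6 primitive endoderm and all 4 trophoblast markers were above background in every clone. The mean level of the endoderm markers was 1.19 to 2.74 in 3F and 1.39 to 2.81 in 4F clones, against -3.33 and -2.75 in the ES arrays. That of the trophoblast markers was 0.71 to 1.59 in 3F and -2.15 to 1.79 in 4F clones, against -4.99 and -2.78.

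Clones resembled each other across groups as much as within the 4F group. Over the tested probes the mean Pearson correlation between clones was 0.978 within 3F (0.963 to 0.992), 0.959 within 4F (0.937 to 0.987) and 0.960 between the groups (0.924 to 0.992). The 3F clones were more alike than the 4F clones by 0.0191, which was within what dividing the clones otherwise gave (exact permutation test, two-sided, p = 0.143), and by 0.0065 without the slide 3 arrays (p = 0.571). With normexp the difference was 0.0323 (exact permutation p = 0.0317). The nearest clone to 4F-PαS-iPS #3 was 3F-PαS-iPS #2 (0.992), and the nearest to 4F-PαS-iPS #5 was 3F-PαS-iPS #1 (0.981). Within the 3F group, #1 and #2 formed one close pair (0.990) and #3, #4 and #5 another set (0.986 to 0.992). The first principal component (47.9% of the variance) set apart 4F-PαS-iPS #1 and #4 at 98.9 and 126, with the other 8 clones between -51.0 and 21.8.

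**Figure D2:**
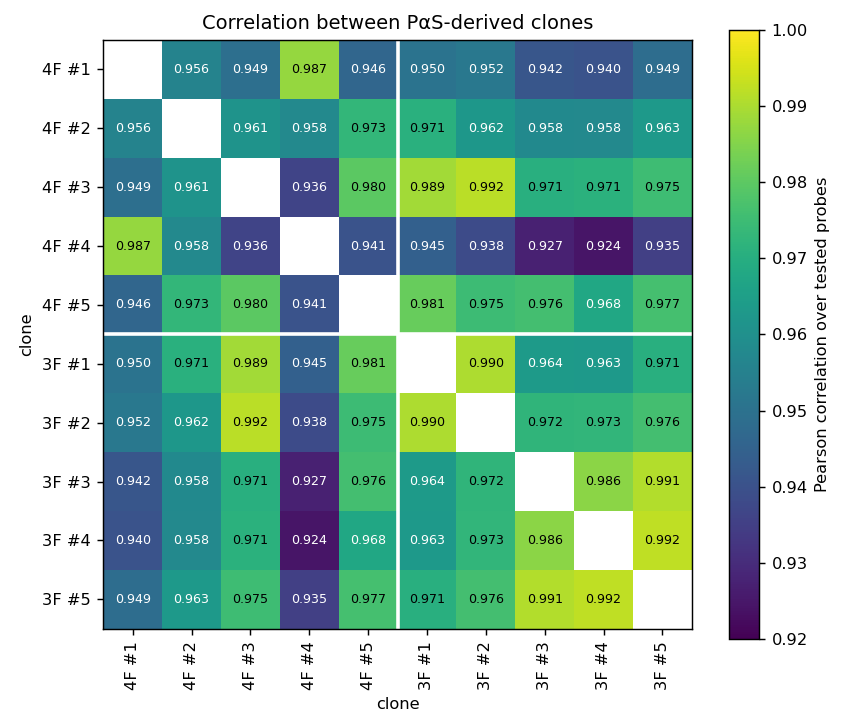
Pearson correlation of log2 levels over the tested probes between each pair of the 10 clones (rows and columns), with lighter colours for higher values and a white line between the groups. 4F-PαS-iPS #1 and #4 resembled each other (0.987) more than any other clone, while 4F-PαS-iPS #3 and #5 resembled 3F clones most.

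Some differences between clones followed single chromosomes and not the number of factors. Ddx3y, a Y-linked RNA helicase, was above background in 4F-PαS-iPS #3 (-0.11), 3F-PαS-iPS #1 (0.22) and 3F-PαS-iPS #2 (-0.17), whereas the other 7 clones lay between -8.44 and -7.25. Xist, the RNA that coats the inactive X chromosome, was highest in 3F-PαS-iPS #4 (2.92) and 4F-PαS-iPS #2 (1.03), against -5.19 to -2.20 in the other clones. The median over 484 X-linked genes, each taken relative to its mean over clones, was 0.32 in 4F-PαS-iPS #2 and between -0.06 and 0.06 in the others. Over 1211 genes of chromosome 11 it was 0.22 in 4F-PαS-iPS #5 and 0.14 in 3F-PαS-iPS #3, with the others between -0.05 and 0.08. The part of these clone differences in the gene results below was not tested.

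Across the array no probe passed the test. Of 24490 probes tested (those above background in all 5 clones of at least 1 group), 0 (0%) differed at an adjusted p under 0.05 in limma, and the lowest adjusted p was 0.193. At an unadjusted p under 0.05 there were 4774 probes (19.5%), of which 1107 differed at least 2-fold. Leaving out 4F-PαS-iPS #3 brought 38 probes past the threshold, of which 34 were lower in 3F clones, and leaving out 3F-PαS-iPS #1 brought 1. A fit of all 6 groups of clones called 4 of 25417 probes (0.0157%): Kcnv2 and Mamstr, which were higher in 3F, and Ankrd34b and Sdha, which were lower. Adding ES cells as a seventh group gave 6, with Myot and Mobp as well, both lower in 3F clones (-1.05 and -3.21). These genes were not above background in all 5 clones of either PαS group and entered through another group. The sizes of their differences are therefore not settled. With the slide as a random block 0 probes passed, and 1774 had an unadjusted p under 0.05.

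Per gene, 14297 of 20644 genes were tested by their brightest probe, and they divided evenly, with 7196 higher and 7101 lower in 3F clones (49.7%) and a median difference of 0.00. The quartiles of the differences were -0.26 and 0.28, and their 5th and 95th percentiles were -0.81 and 0.89. At least 2-fold differences were seen for 550 genes higher and 430 lower. All 5 clones of 3F lay above all 5 of 4F for 230 genes (1.61%) and below them for 124 (0.867%). At an unadjusted p under 0.05 there were 1494 genes higher (10.4%) and 1372 lower (9.6%), and these shares are the background against which the gene lists below are read. Members of lists beyond the 2 of lowest p were named after their values were seen. Since no gene passed the adjusted test in the comparison of the 10 clones, the values that follow describe levels in these clones. Genes were taken from 46 lists of known function, and none of the 46 lists gave a score that separated all 3F from all 4F clones.

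Among the genes that did separate the groups, those higher in 3F clones with the lowest p values were Kcnv2, Kalrn, Ppic and Ctsf. Myl7, the atrial myosin light chain, lay at 0.26, 2.78, 1.97, 0.92 and 2.58 in 4F and at 2.97, 3.91, 4.90, 5.16 and 4.67 in 3F clones, a 6.16-fold higher mean (difference 2.62 ± 0.55 SE, limma adjusted p = 0.193). Vit, which encodes the matrix protein vitrin, lay at -3.58, -1.91, -2.42, -4.66 and -3.09 in 4F and at -0.28, -1.01, -1.54, -0.33 and -1.27 in 3F clones (4.75-fold). For both genes the clones of the groups were apart, with 4F-PαS-iPS #1 and #4 among the lowest 3, and the differences without those arrays were 1.88 for Myl7 and 1.59 for Vit.

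Kcnv2, a silent subunit of potassium channels, was above background in 5 of 5 3F clones (-5.22, -4.55, -2.81, -3.20 and -2.77) and in none of the 4F clones, so it was at least 3.69-fold higher in 3F. Mmp23, a membrane-bound metalloprotease, gave -1.19, -1.05, 0.79, -1.33 and 0.37 against 0.94, 1.47, 2.00, 1.53 and 2.08 (4.25-fold). The other members with the lowest p values lay 1.53- to 2.27-fold higher, and were Kalrn (a guanine nucleotide exchange factor), Ppp1r1a (an inhibitor of protein phosphatase 1), Mxi1, Rcn3 (a calcium-binding protein of the endoplasmic reticulum), Ctsf (a lysosomal cathepsin), Ppic (a cyclophilin of the secretory pathway), Ypel3 and Zfp707. Rcn3, for one, lay at 5.43, 5.36, 5.63, 4.95 and 5.48 in 4F and at 5.74, 6.16, 6.43, 6.62 and 6.37 in 3F clones (1.85-fold).

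Among the genes lower in 3F clones, several were dim. St8sia6, a sialyltransferase, lay at -2.89, -3.45, -4.59, -2.93 and -4.22 in 4F and at -5.73, -5.69, -6.48, -6.55 and -6.23 in 3F clones, where it was above background in 1 of 5, so that its difference of -2.52 ± 0.35 (SE) was measured mostly against background. Ankrd34b was above background in all 4F clones (-4.04, -5.74, -4.96, -4.12 and -5.44) and in no 3F clone, which puts it at least 2.52-fold lower. Slc36a3, of a family of amino acid transporters, was likewise above background in all 4F clones (-3.51, -5.15, -5.40, -3.81 and -3.90) and in no 3F clone, at least 3.28-fold lower. Cfap161, a protein of cilia, and Nipal2 (differences -2.13 and -1.91) were above background in all 4F clones and in 1 of 5 3F clones each. These were faint signals in either group.

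Brighter genes were also among them. Tfrc, the transferrin receptor that brings iron into dividing cells, lay at 0.90, 1.31, 1.10, 1.13 and 0.70 in 4F and at 0.61, 0.15, 0.23, -0.21 and -0.05 in 3F clones (1.84-fold lower). Rnf213, a large ubiquitin ligase, lay at 0.79, 0.43, 0.79, 0.77 and 0.67 against 0.07, -0.34, -0.40, -0.18 and -0.12 (1.85-fold lower, difference -0.89 ± 0.14 SE). The 4F clones lay closer together than the 3F clones did. Rims1, of synaptic release sites, was dimmer and 3.96-fold lower. Xylb (xylulokinase), Plcb4 (a phospholipase C), Ccdc171 and Helq (a repair helicase) lay 1.63- to 1.89-fold lower.

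**Figure D3:**
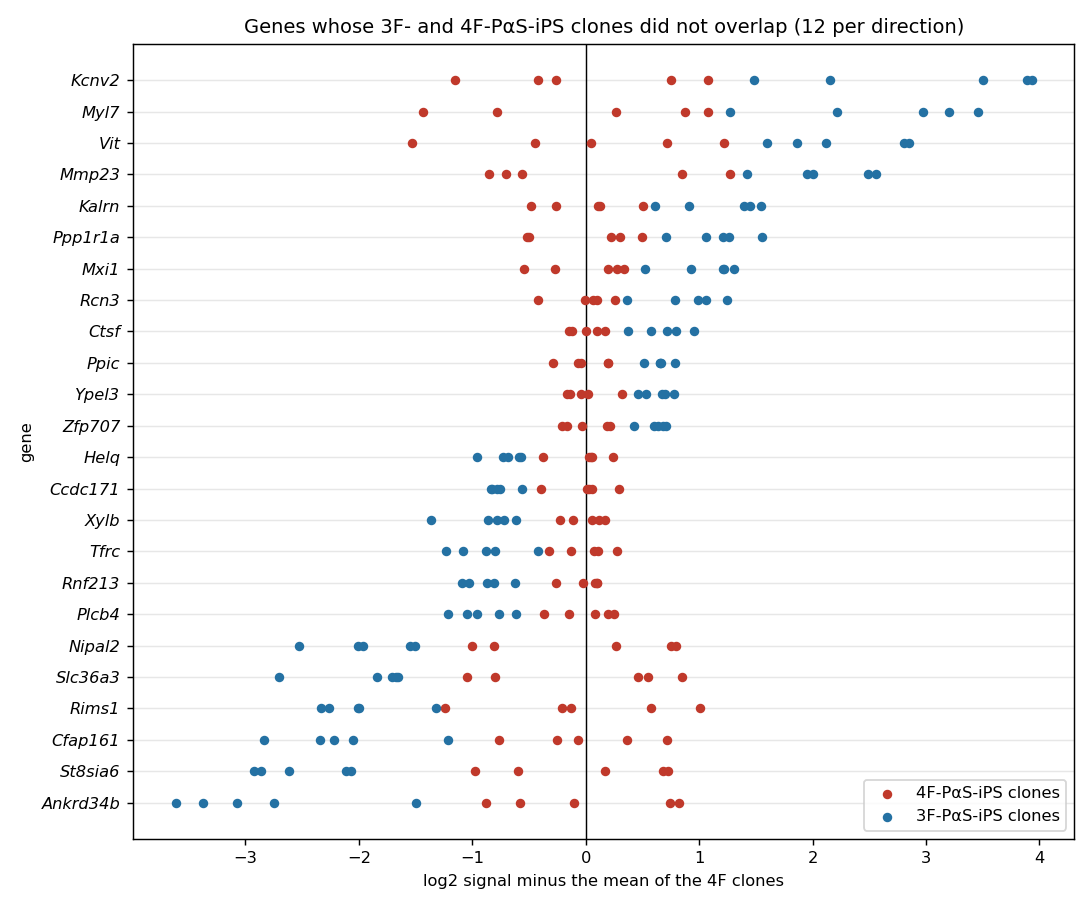
The 12 genes of lowest p in each direction whose 3F (blue) and 4F (red) clones did not overlap, as the log2 signal of each of 10 clones minus the mean of the 4F clones. Kcnv2, Myl7, Vit and Mmp23 had the highest 3F means and Ankrd34b and St8sia6 the lowest, and for Rims1 and Tfrc the nearest clones of the groups almost touched.

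Of the Myc family and its partners, 12 of 12 genes were tested, and 8 lay lower and 4 higher in 3F clones (median -0.12), which turned to 4 lower and 8 higher (median 0.08) without the slide 3 arrays. Mycn lay at 1.90, 2.42, 1.85, 2.67 and 1.89 in 4F and at 2.33, 2.12, 1.91, 2.51 and 2.20 in 3F clones, and Mycl differed as little (differences 0.07 and -0.05, limma unadjusted p = 0.727 and 0.884). The member that stood apart was Mxi1, which competes with Myc for Max and represses Myc targets. It lay at 1.22, 1.83, 1.70, 0.96 and 1.77 in 4F and at 2.02, 2.42, 2.71, 2.80 and 2.71 in 3F clones, without overlap (2.05-fold higher, difference 1.04 ± 0.22 SE, limma adjusted p = 0.193). Mxd4, another such antagonist, lay 1.37-fold higher in 3F clones (unadjusted p = 0.0421), with overlap.

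Growth genes known as direct Myc targets lay lower in 3F clones more often than genes in general. Of 33 tested, 31 lay lower, with a median difference of -0.51 against 0.00 over all genes, and 18 of 33 had an unadjusted p under 0.05 in that direction, against 9.6% of all genes. None was without overlap between the groups. The exceptions were Ccnd2 (cyclin D2), 0.63 higher, and Eif4e, 0.03 higher. Shmt2 and Shmt1, which feed one-carbon units into nucleotide synthesis, had differences of -1.20 and -0.99, Nme1 -0.97, the ribosome assembly factor Rrs1 -0.97, the repair nuclease Apex1 -0.95, Dkc1 (dyskerin) -0.86, Cdk4 -0.74, Npm1 (nucleophosmin) -0.64 and Ncl (nucleolin) -0.59. Without the slide 3 arrays Shmt1 stood at -0.79, but Shmt2 at -0.49, Nme1 at -0.48, Rrs1 at -0.44, Apex1 at -0.43, Dkc1 at -0.50, Npm1 at -0.40, Ncl at -0.41 and Cdk4 at -0.25.

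Shmt1 lay at 1.61, 1.48, 0.69, 1.79 and 1.47 in 4F and at 0.95, 0.37, 0.33, 0.09 and 0.37 in 3F clones (1.98-fold lower, limma unadjusted p = 0.00131, adjusted p = 0.193). Only 4F-PαS-iPS #3 lay below the highest 3F clone. As the mean over the 33 genes, relative to the mean of the 10 clones, the list stood at 0.40, 0.47, -0.23, 0.69 and -0.06 in 4F and at 0.11, -0.19, -0.35, -0.44 and -0.39 in 3F clones. The clones with the highest list level, 4F-PαS-iPS #1, #2 and #4, were those with the highest c-Myc coding signal, and #3 and #5 lay among the 3F clones. This order was not particular to the list. 4F-PαS-iPS #1, #2 and #4 were also the highest 4F clones on the core pluripotency (0.27, 0.92 and 1.00), splicing (0.18, 0.33 and 0.40) and cholesterol lists (0.47, 0.41 and 0.41). A link to c-Myc was not tested. Without the slide 3 arrays the median of the Myc targets was -0.35 and 32 of 33 members lay lower.

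The E-box CACGTG, which reads the same on both strands, was present in RefSeq promoters (250 bases before to 50 after the start, build GRCm38.p6) of 10 of the 27 list members with a promoter sequence (37.0%). The share was 11.5% of 11128 tested genes with a promoter and 7.15% of all 32851 promoters. Core pluripotency factors had it in 1 of 11 (9.09%), immediate early genes in 3 of 18 (16.7%), splicing factors in 5 of 37 (13.5%) and cholesterol genes in 4 of 17 (23.5%). The promoters of 2 of the genes with several copies are shown, with the E-boxes in capitals, each 250 bases that end just before the start, 5′ to 3′ on the gene's strand. They are Cdk4 (chr10:127063285-127063534, plus strand, 4 copies) and Ldha (chr7:46845554-46845803, plus strand, 2 copies). Eif4e, which did not lie lower in 3F clones, also had 2 copies and is not shown. The Myc list was drawn from genes known as direct targets, so a high share in it could be foreseen and is not a result about these clones. A match of letters does not show binding.
Cdk4 promoter: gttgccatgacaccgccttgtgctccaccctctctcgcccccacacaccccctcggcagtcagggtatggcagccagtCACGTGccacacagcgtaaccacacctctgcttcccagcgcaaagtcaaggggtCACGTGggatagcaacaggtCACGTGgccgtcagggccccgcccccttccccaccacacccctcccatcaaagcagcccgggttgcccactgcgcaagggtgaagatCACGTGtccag
Ldha promoter: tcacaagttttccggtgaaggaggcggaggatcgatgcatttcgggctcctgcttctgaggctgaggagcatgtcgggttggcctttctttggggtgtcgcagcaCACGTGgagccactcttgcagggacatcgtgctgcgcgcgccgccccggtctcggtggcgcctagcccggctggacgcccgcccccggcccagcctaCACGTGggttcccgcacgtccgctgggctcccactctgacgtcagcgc

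Metabolic genes that border on these targets lay lower in 3F clones to differing degrees. Of 26 genes of cholesterol synthesis, 22 lay lower (median -0.46) and 11 had an unadjusted p under 0.05 (none higher). Lss, the cyclase that makes lanosterol, lay at 0.87, 0.67, -0.20, 0.78 and -0.04 in 4F and at -0.35, -0.67, -0.46, -0.73 and -0.49 in 3F clones, without overlap (1.94-fold lower), as did Fdft1 (squalene synthase, difference -0.46). Fdps, Idi1, Fasn, Nsdhl and Sqle had differences of -0.89 to -0.62, that of Fasn going from -0.83 to -0.45 without the slide 3 arrays. Of the 4 members that were not lower, Insig1 (0.36) is a feedback inhibitor of the pathway and not one of its enzymes.

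Of 24 glycolysis genes 17 lay lower (median -0.36). The platelet-type phosphofructokinase Pfkp was at 2.88, 3.11, 1.53, 3.16 and 1.89 in 4F and at 2.32, 1.35, 0.67, 0.35 and 1.04 in 3F clones (2.58-fold lower, unadjusted p = 0.00906). Ldha, whose promoter is shown above, was at 7.41, 7.14, 6.84, 7.57 and 6.62 against 6.67, 6.64, 6.62, 6.42 and 6.49 (1.46-fold lower). Hk1, Slc16a1 and Pfkfb4 went the other way, at 0.32 to 0.65. The median was -0.04 without the slide 3 arrays, so most of it rested on 4F-PαS-iPS #1 and #4.

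A list that rested on those clones was that of 25 genes of amino acid shortage and the unfolded protein response, many of them targets of the factor Atf4. The list stood at 1.05 and 0.98 in 4F-PαS-iPS #1 and #4 and between -0.53 and -0.11 in the other 8 clones. Over all clones 23 of 25 lay lower in 3F (median -0.43), as with the amino acid transporter Slc7a5 (1.88, 1.25, 0.59, 2.04 and 0.73 against 0.89, 0.34, -0.07, 0.16 and 0.37) and Mthfd2 (1.81-fold lower). Without #1 and #4 the median turned to 0.14, with 14 of 25 higher. Metallothionein Mt2, a zinc- and stress-induced gene, was 2.15-fold lower in 3F clones, and Gpx2, a glutathione peroxidase, 6.73-fold higher (unadjusted p = 0.00658 and 0.00641). The difference of Gpx2 went from 2.75 to 1.47 without the slide 3 arrays (unadjusted p = 0.028).

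Translation and energy genes differed by less. Of 78 cytosolic ribosomal protein genes none had an unadjusted p under 0.05, and the median of -0.08 turned to 0.13 without the slide 3 arrays (69 of 78 higher), and to 0.03 without 4F-PαS-iPS #4 alone and 0.10 with normexp background correction. Of 69 mitochondrial ribosome genes 54 lay lower (median -0.13, and -0.06 with 49 lower without the slide 3 arrays), with 7 at an unadjusted p under 0.05, a share near that of all genes, including Mrpl15 (1.46-fold) and Mrpl39 (1.30-fold). By the brightest probe of each gene, only Ndufb5 of 56 oxidative phosphorylation subunits (1.55-fold lower) and Psmc5 of 31 proteasome subunits (1.28-fold lower) had such a p. That is below the background share. The Sdha probe that the fit of 6 groups called was not counted there, and it lay lower without overlap (difference -0.58, limma adjusted p = 0.193). Splicing factors were more one-sided, with 37 of 40 lower (median -0.24, and -0.15 without the slide 3 arrays) and 7 at an unadjusted p under 0.05. Srsf1, a serine and arginine rich splicing factor, lay at 3.74, 3.95, 3.19, 4.05 and 3.26 in 4F and at 3.45, 3.12, 2.45, 2.97 and 2.90 in 3F clones (1.58-fold lower), and 30 of 40 members were lower without the slide 3 arrays.

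Pluripotency genes lay lower in 3F clones, and there the 3F clones differed among themselves. Of 17 core factors 15 lay lower (median -0.77) and 9 had an unadjusted p under 0.05. Lin28a and Nacc1, at 0.06 and 0.01, were the exceptions. Sox2 lay at 2.47, 3.15, 2.61, 3.23 and 2.50 in 4F and at 2.77, 2.17, 0.41, 0.54 and 0.88 in 3F clones (2.71-fold lower, difference -1.44 ± 0.45 SE, limma adjusted p = 0.193). Nanog lay at 1.49, 3.46, 2.39, 2.61 and 3.68 against 2.91, 1.92, 1.18, 0.77 and 1.33 (2.15-fold lower). In both cases 3F-PαS-iPS #1 lay within the 4F range and #3, #4 and #5 lay below it.

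Pou5f1 (Oct3/4) lay at 4.61, 4.71, 3.08, 5.22 and 3.80 in 4F and at 3.90, 2.92, 3.01, 2.83 and 3.51 in 3F clones (2.07-fold lower, unadjusted p = 0.0207). Klf4 was at 6.50, 5.99, 5.45, 6.56 and 5.48 against 5.39, 5.58, 5.62, 5.62 and 5.42, so only 4F-PαS-iPS #1, #2 and #4 stood above the 3F clones (1.39-fold, unadjusted p = 0.0716). The differences went from -1.05 to -0.63 for Pou5f1 and from -0.47 to -0.11 for Klf4 without the slide 3 arrays. Since Oct3/4, Sox2 and Klf4 were delivered to both groups, their probes may read vector as well as own transcript, and this was not tested here.

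Of 24 genes of the naive network 20 lay lower (median -0.66), and 9 were lower and 2 higher (Klf2 and Socs3) at an unadjusted p under 0.05. The lower ones were Pecam1, Gdf3, Eras, Gbx2, Nr5a2, Esrrb, Nanog, Tcl1 and Tbx3, with differences from -1.61 to -1.04. Eras, an ES cell Ras protein that drives growth, lay at 0.19, 1.48, -0.45, 1.46 and 1.49 in 4F and at -0.05, -0.90, -0.50, -1.60 and -0.74 in 3F clones (3.01-fold lower). Esrrb, a nuclear receptor of the naive state, had a difference of -1.53. Klf2, Socs3, Stat3 and Tex19.1 were the 4 that lay higher, though Tex19.1 turned from 0.17 to -0.52 without the slide 3 arrays, and of which Stat3 is the mediator of LIF and Socs3 one of its targets. Without the slide 3 arrays the medians were -0.65 (core) and -0.61 (naive).

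Across clones the naive list stood at 0.25, 0.67, -0.03, 0.80 and 0.16 in 4F and at 0.44, -0.14, -0.69, -0.89 and -0.57 in 3F. The ES arrays were at 1.60 and 0.45 on the same scale. The primed epiblast and streak genes had no common direction (9 higher and 9 lower of 18), though Nodal (difference -1.14) and Zic2 (-1.89, above background in 2 of 5 3F clones) lay lower. 2-cell-like genes, which mark a rare totipotent-like state, were all 7 higher in 3F, none with an unadjusted p under 0.05, and all 7 were lower without the slide 3 arrays (median 0.42 and -0.34).

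Genes of DNA replication and chromatin followed in part. Of 37 replication and mitosis genes 26 lay lower in 3F clones (median -0.26) and 11 had an unadjusted p under 0.05, including Rrm2, Mcm2, Orc1, Tyms and E2f1 (-0.76 to -0.60). Mcm2, of the replicative helicase, lay at 2.91, 3.50, 2.84, 3.38 and 2.89 in 4F and at 2.96, 2.46, 2.06, 2.12 and 2.19 in 3F clones (1.68-fold lower), where only 3F-PαS-iPS #1 reached the 4F range. The number of lower genes was 32 of 37 without the slide 3 arrays. Of 27 replication-dependent histone genes 20 lay lower, with H3c1 alone at an unadjusted p under 0.05, and the median went from -0.24 to -0.06 without the slide 3 arrays.

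Of 19 DNA methylation enzymes and readers 14 lay lower (median -0.39, and -0.27 without the slide 3 arrays). At an unadjusted p under 0.05, 7 were lower (Uhrf1, Tet2, Dnmt3b, Dnmt3a, Hells, Gadd45a and Dnmt1) and 1 was higher (Mbd2, a reader of methylated DNA, difference 0.36). The de novo enzymes went from -0.74 to -0.27 (Dnmt3b) and from -0.66 to -0.30 (Dnmt3a) without those arrays. Uhrf1, which recruits Dnmt1 to replicated DNA, lay at 2.85, 3.45, 2.30, 3.43 and 2.69 in 4F and at 2.60, 2.11, 1.82, 1.89 and 1.83 in 3F clones (1.86-fold lower, unadjusted p = 0.00475). Of 28 Polycomb genes 18 lay lower (median -0.25, and -0.05 without the slide 3 arrays), with 9 lower and 3 higher at an unadjusted p under 0.05. Phf19, a factor that brings the methyltransferase complex to chromatin, lay 2.35-fold lower, and Ezh2, the methyltransferase, lay lower without overlap (difference -0.38). Lin28b, which blocks let-7 processing, was 3.37-fold lower (-1.43, -1.39, -3.47, -1.15 and -3.84 against -3.26, -3.76, -4.35, -4.40 and -4.29), whereas Lin28a differed by 0.06. The difference of Lin28b went from -1.75 to -1.11 without the slide 3 arrays. 4F-PαS-iPS #3 and #5 again lay with the 3F clones.

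Genes of the p53 pathway were mixed, with 13 of 21 higher and 8 lower in 3F clones. Trp53 itself had a difference of -0.81, while some of its targets (Phlda3, Fas, Bbc3 or Puma, Cdkn1a and Ccng1) lay higher by 0.38 to 1.08. Phlda3, an inhibitor of Akt, was at 5.50, 5.48, 5.74, 5.58 and 5.73 in 4F and at 6.03, 6.06, 6.23, 6.18 and 6.13 in 3F clones, without overlap (1.43-fold). Fas, a death receptor, was at -1.15, -0.96, 0.03, -1.38 and -0.20 against 0.16, 0.49, 0.31, 0.47 and 0.30, also without overlap (2.12-fold), as was Bbc3. That made 3 of 21 without overlap, against 1.61% of all genes, yet the list median was 0.08 and apoptosis genes stood at 0.06. Within the apoptosis list Bcl2l1, a survival protein, lay 1.54-fold higher and Bid, which promotes death, 1.52-fold lower (unadjusted p = 0.0179 and 0.0325). The difference of Bid went from -0.60 to -0.29 (unadjusted p = 0.207) and the list median to 0.0043 without the slide 3 arrays.

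Genes of fibroblasts lay higher in 3F clones. Of 29 fibroblast and feeder genes 25 lay higher (median 0.66) and 9 had an unadjusted p under 0.05, against 10.4% of all genes. The exceptions were Fn1 (-0.55), Col5a2, Vim and S100a4. Myl9, a regulatory myosin light chain, lay at 2.86, 4.11, 4.15, 1.26 and 4.37 in 4F and at 4.38, 5.06, 5.45, 5.36 and 5.06 in 3F clones, without overlap (3.28-fold), and Thbs1 (thrombospondin) was 3.21-fold higher. The differences went from 1.71 to 0.85 for Myl9 and from 1.68 to 0.83 for Thbs1 once the slide 3 arrays were left out. The list stood at -0.06, -0.86, 0.27, -0.93 and 0.07 in 4F and between 0.21 and 0.48 in 3F clones, so that 4F-PαS-iPS #2 and #4 lay low and the other 3 close to the 3F clones.

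The cultures held SNL feeder cells, which are fibroblasts, and in such bulk samples more cells of a type and more RNA per cell cannot be told apart. Of the 12 defining fibroblast markers, 11 lay higher in 3F and 11 were above background in all 10 clones, with none at background throughout. Their mean log2 level ran from 2.86 to 3.03 in 3F and from 1.44 to 3.01 in 4F clones, against -3.74 and 1.37 in the ES arrays and 5.38 in primary PαS cells. The part of these markers in the lower pluripotency levels was not tested. The sorting markers of the source cells did not differ (Pdgfra 0.14, Ly6a -0.02, unadjusted p = 0.672 and 0.971).

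Immediate early genes, which growth factors, serum and handling induce, lay higher in 3F clones as well. Of 23 tested 19 lay higher (median 0.45, and 0.39 without the slide 3 arrays) and 10 had an unadjusted p under 0.05, with none lower. They were Ccn2, Fos, Zfp36, Ccn1, Egr1, Ier3, Nr4a1, Junb, Btg2 and Srf, with differences from 2.45 to 0.60. Egr1, a zinc-finger factor, lay at -0.38, 0.39, -0.10, -1.13 and -0.11 in 4F and at 0.24, 0.59, 0.68, 1.59 and 1.28 in 3F clones (2.21-fold higher, difference 1.14 ± 0.32 SE), and only 3F-PαS-iPS #1 lay below the highest 4F clone. Zfp36, which destabilises AU-rich messages, was 2.66-fold higher (-2.09, -0.61, 0.04, -2.23 and -0.12 against -0.08, 0.21, 0.66, 0.70 and 0.56). With the slide 3 arrays left out, the difference of Zfp36 went from 1.41 to 0.64, that of Ccn2 from 2.45 to 1.03, that of Fos to 0.51, that of Ccn1 from 1.38 to 0.58 and that of Ier3 from 1.02 to 0.36.

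Most genes of the LIF pathway lay higher in 3F clones. Of 19 genes 14 lay higher (median 0.35), and 6 had an unadjusted p under 0.05: Lifr, Jak2, Junb, Socs3, Pias3 and Il6st. Lifr, the LIF receptor, lay at -0.09, 1.05, 0.19, -0.77 and 0.65 in 4F and at 0.55, 1.35, 2.64, 2.06 and 2.43 in 3F clones (3.03-fold higher, unadjusted p = 0.00434). 3F-PαS-iPS #2 to #5 stood above all 4F clones. Socs2, another feedback inhibitor, went the other way (-1.27). The difference of Jak2, a kinase of the pathway, went from 1.20 to 0.58 without the slide 3 arrays.

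Other signalling lists had no common direction. Of 43 Wnt genes 25 lay higher (median 0.08, and -0.06 with normexp), with Wnt4 without overlap at -2.85, -0.71, -0.95, -3.86 and -1.16 in 4F and -0.58, 0.16, 0.65, 1.58 and 0.28 in 3F clones (5.01-fold), and Lef1, a Wnt effector, with a difference of -2.10. The differences were 1.36 for Wnt4 and -1.24 for Lef1 without the slide 3 arrays, and -0.30 in place of -1.11 for Cfc1 of the Nodal branch. Tcf7l2, a related effector, was 1.83-fold higher. Of 43 Nodal and BMP genes 8 lay higher and 3 lower at an unadjusted p under 0.05. The lower ones, Gdf3, Nodal and Cfc1, are a ligand pair and a co-receptor of the Nodal branch, and the receptor Tgfbr2 (1.83-fold) was among the higher. For FGF genes the median was -0.07, with the receptor Fgfr3 1.67-fold higher without overlap.

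Among lineage genes, those of primitive endoderm lay higher in 15 of 23 cases (median 0.35, and 0.51 with 20 of 23 without the slide 3 arrays). Foxa2 lay at 3.86, 3.24, 3.29, 3.24 and 2.95 in 4F and at 3.12, 4.20, 4.77, 5.01 and 4.88 in 3F clones (2.11-fold higher), and the basement membrane collagen Col4a1 was 1.97-fold higher. Gata4, Gata6, Sox17, Dab2 and Lama1 lay higher and Sox7 lower (-0.62, and 0.30 without the slide 3 arrays), the mean level of these 6 markers being 1.19 to 2.74 in 3F and 1.39 to 2.81 in 4F clones. 3F-PαS-iPS #1 was the lowest of all and #3, #4 and #5 were among the highest, so the 3F clones with the lowest Sox2 were high here.

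Trophoblast genes had a median of 0.68 that was -0.03 without the slide 3 arrays, with Cdx2 3.16-fold higher (unadjusted p = 0.0314) and Ascl2 lower by a difference of -0.69 (unadjusted p = 0.0205). Without those arrays the difference of Cdx2 was 0.97. In the epithelial-mesenchymal list 15 of 24 genes lay higher (median 0.27, and 0.10 without the slide 3 arrays), with 4 higher and 1 lower at an unadjusted p under 0.05. Both Snai1 (1.74-fold) and the epithelial genes Ocln (2.63-fold), Krt18 and Dsp (differences 1.59 and 1.15, and 0.57 and 0.30 without the slide 3 arrays) lay higher, whereas Grhl2, an epithelial factor, lay lower (-0.87). Among 15 neural genes none had an unadjusted p under 0.05, Nefl (neurofilament light, difference -0.98, and -0.17 without the slide 3 arrays) coming closest. Hox genes lay higher in 21 of 25 cases, but by a median of 0.18 that was 0.12 without the slide 3 arrays and -0.18 with normexp. Hoxc9 (2.19-fold) was one of 4 with an unadjusted p under 0.05, beside Hoxb6, Hoxa10 and Hoxc10. Hoxc10 was above background in 2 of 5 4F clones. It turned to -0.29 with normexp, though not once outlying background values were replaced. Kit, a receptor of germ and blood cells, was 2.35-fold higher without overlap (0.91, 1.76, 1.68, 0.57 and 1.52 against 1.84, 2.44, 2.82, 2.71 and 2.78).

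At the imprinted Dlk1-Dio3 domain of chromosome 12, whose maternal RNAs can be silenced during reprogramming, 4 of 5 tested genes lay higher in 3F clones. Meg3 (Gtl2) was 3.19-fold and the microRNA host Mirg 2.53-fold higher (unadjusted p = 0.0149 and 0.0208), and both groups overlapped. Paternally expressed Dlk1 (0.24) and Dio3 (-0.45) differed by less than the spread. Of 36 other imprinted genes 4 lay higher and 4 lower at an unadjusted p under 0.05, which is near the shares of all genes (10.4% and 9.6%). They were Zim1, Sgce, Cd81 and Gnas and, lower, Magel2, Impact, Snrpn and Ascl2. Zim1, above background in 2 of 5 4F clones, turned from 1.46 to -0.30 with normexp, though not once outlying background values were replaced. Leaving out the slide 3 arrays gave 0.86 for Zim1, 0.56 for Sgce, -0.77 for Magel2 and -0.32 for Impact. Cd81, a tetraspanin, was without overlap (5.52, 5.77, 5.86, 5.77 and 5.89 against 6.30, 6.10, 6.25, 6.37 and 6.19, 1.40-fold).

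Interferon genes gave 1 of 33 with an unadjusted p under 0.05 (Isg20, difference 1.41, and 0.74 without the slide 3 arrays), fewer than the background share. Hypoxia genes were divided, with Adm (1.91-fold, no overlap), Epas1 (2.87-fold) and Vegfa (0.87) higher and Stc2 (-1.81) and Kdm3a (-0.97) lower. Stc2 and Kdm3a were at -0.54 and -0.33 without the slide 3 arrays. Germline genes, blood vessel markers, antigen presentation, bone, fat and cartilage, protocadherin and heat shock genes had medians between -0.13 and 0.32. In either direction, 6 of 23 heat shock, 3 of 12 vessel, 6 of 27 germline, 4 of 19 antigen presentation, 3 of 20 bone, fat and cartilage and 1 of 11 protocadherin genes had an unadjusted p under 0.05. Of all genes, 10.4% were higher and 9.6% lower at that p. The germline median turned from 0.04 to -0.58 without the slide 3 arrays.

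**Figure D4:**
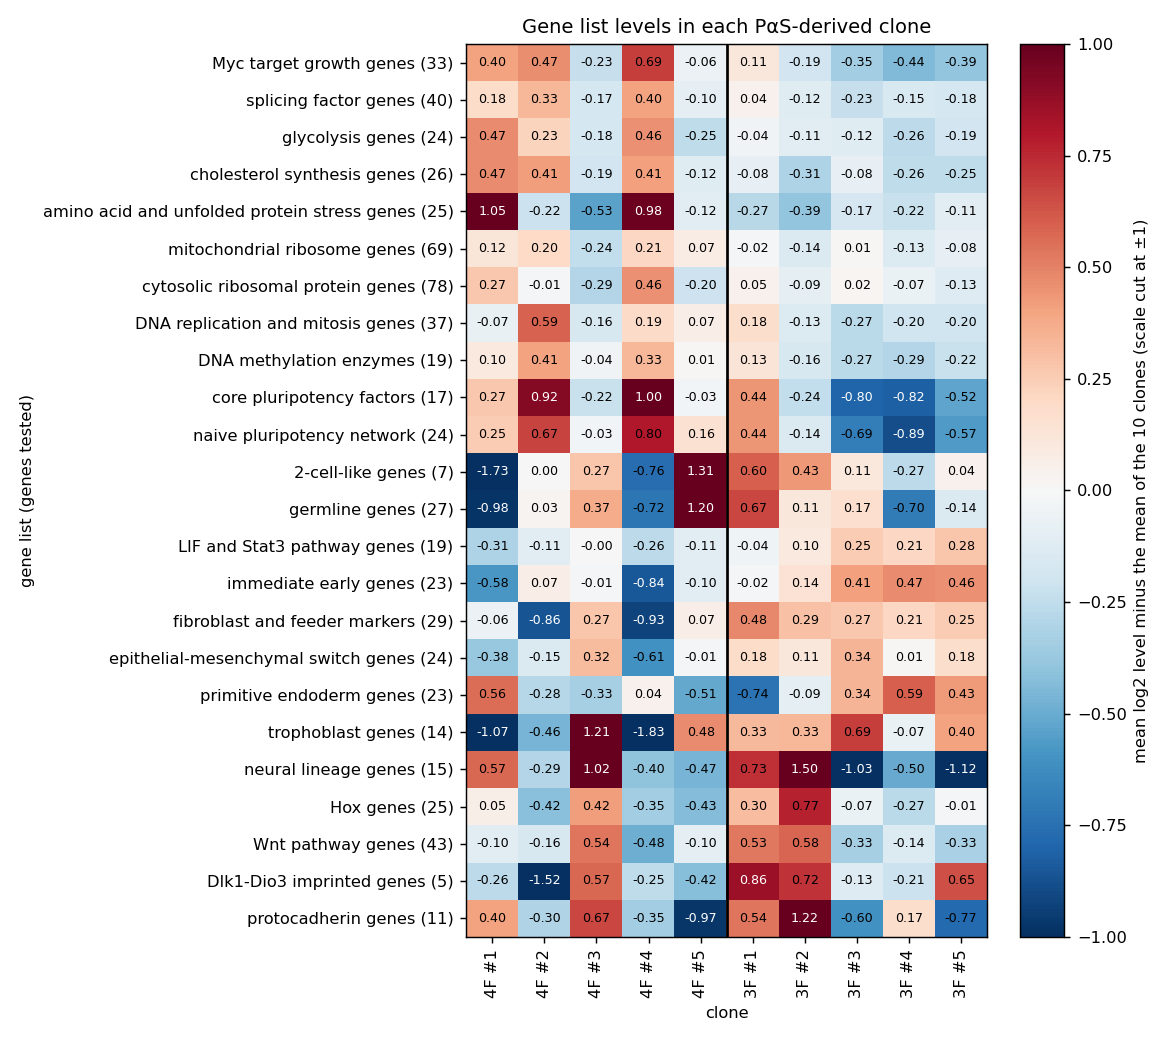
Mean log2 level of each gene list in each clone relative to the mean of the 10 clones (number of genes tested in brackets, colour scale limited to ±1, 4F clones left of the line). Myc targets and pluripotency lists were high in 4F-PαS-iPS #2 and #4 and low in 3F-PαS-iPS #3, #4 and #5, and the amino acid and unfolded protein list was high only in 4F-PαS-iPS #1 (1.05) and #4 (0.98).

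Clones of the other sources were compared in the same way, to see which of these differences were shared. In a fit of the 30 clones, 3022 probes (11.9%) differed between 3F- and 4F-OP-iPS clones and 3416 (13.4%) between 3F- and 4F-TTF-iPS clones. Myc target growth genes had negative medians in each source, at -0.51 in PαS, -0.34 in OP and -0.30 in TTF clones, as did glycolysis (-0.36, -0.44 and -0.35), splicing (-0.24, -0.28 and -0.19) and replication genes (-0.26, -0.43 and -0.39). Immediate early genes had positive medians in each (0.45, 0.62 and 0.36). By contrast the core pluripotency median was -0.77 in PαS but 0.93 in OP and 0.11 in TTF clones, and that of the naive network -0.66, 1.41 and 0.65. The 4F clones of those sources were uneven: the mean log2 level of the core genes was -1.35, -0.95, -1.43, 2.55 and 1.62 in 4F-OP-iPS #1 to #5, -0.91, 0.63, 1.88, 1.15 and 1.39 in 4F-TTF-iPS #1 to #5, and 0.68 to 1.72 in the 3F clones of both. With a clone left out the core median ran from 0.48 (without 4F-OP-iPS #2) to 1.52 (without 4F-OP-iPS #4) in OP clones and from -0.22 (without 4F-TTF-iPS #1) to 0.42 (without 4F-TTF-iPS #3) in TTF clones, where it turned sign. That of the naive network ran from 1.13 to 2.23 (without 4F-OP-iPS #4) and from 0.44 (without 4F-TTF-iPS #1) to 0.79.

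The test of the difference itself found 377 probes (1.48%) for which 3F minus 4F differed between PαS and OP clones, with 161 larger and 216 smaller in PαS, and 348 (1.37%) against TTF clones, with 144 larger and 204 smaller. By its brightest probe no core pluripotency or Myc target growth gene was among them, and of the naive network Tbx3 was smaller in PαS than in OP clones (adjusted p = 0.0284) and Klf2 and Socs3 larger than in TTF clones (0.0186 and 0.0384). These adjusted p values were 0.112 for Tbx3, 0.0444 for Klf2 and 0.113 for Socs3 without the slide 3 arrays, and with the slide as a random block 0.0381, 0.537 and 0.537. Without the slide 3 arrays 31 and 76 probes passed, of which 28 and 48 were among those, and with the slide as a random block 375 and 2. Leaving out single clones gave 68 to 2722 against OP (2722 without 4F-OP-iPS #4) and 82 to 1050 against TTF clones (1050 without 4F-PαS-iPS #2).

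Ankrd34b and Slc36a3 were above background in no 3F-PαS clone, so their differences are measured against background there and their sizes are not settled. Ankrd34b was lower in 3F clones of PαS (-2.86) but higher in those of OP (1.60) and TTF (2.07), and it differed from each (limma adjusted p = 0.00246 and 0.000856, 0.0323 and 0.0108 without the slide 3 arrays, and 0.00791 and 0.0658 with the slide as a block). Slc36a3 also differed from both sources (adjusted p = 0.0313 and 0.0102, 0.121 and 0.05 without those arrays, and 0.0531 and 0.324 with the slide as a block). Mxi1 was higher in 3F clones of PαS (1.04) and not of OP (-0.44, adjusted p of the difference 0.0431, and 0.148 without the slide 3 arrays). St8sia6 (-2.52 against 1.56 in OP, 0.0231), Rnf213, Rims1, Mt2 and Hsf1, the heat shock factor, also passed against OP clones with all arrays, and none of these did without the slide 3 arrays.

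**Figure D5:**
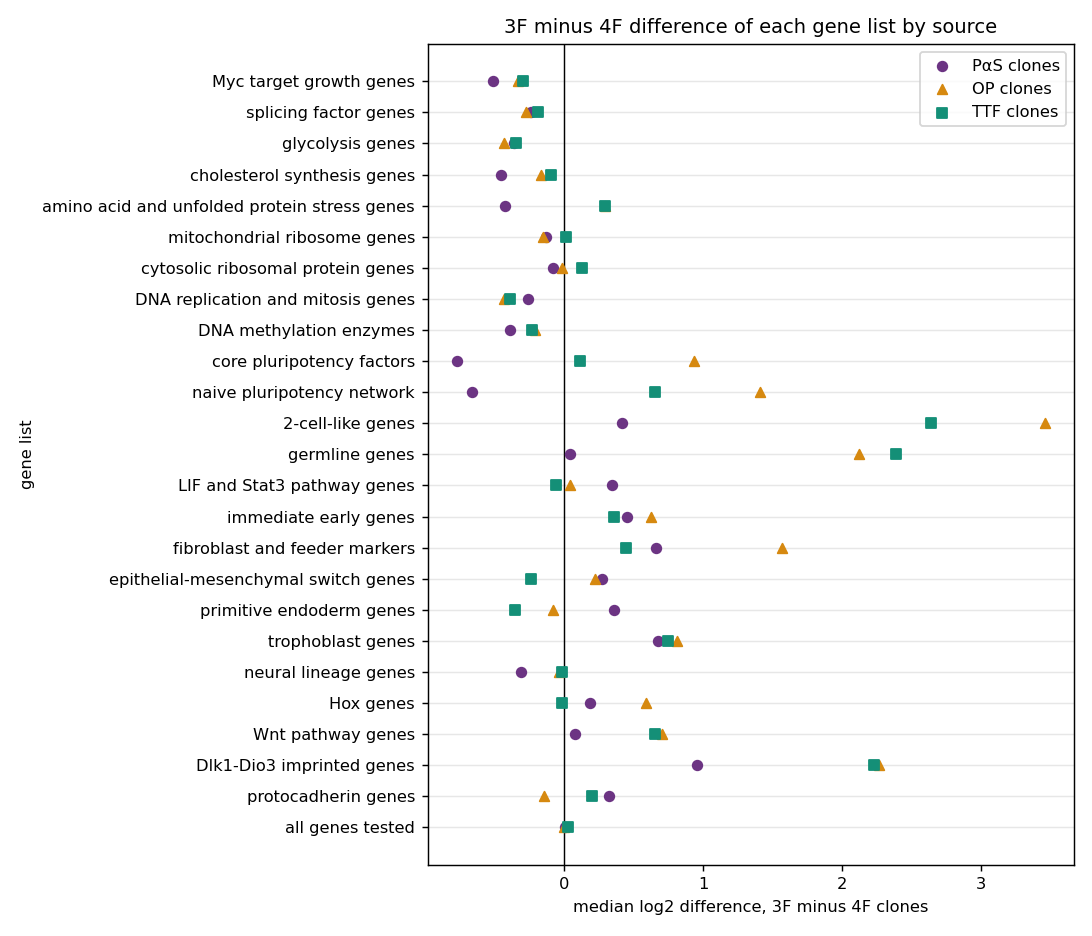
Median log2 difference (3F minus 4F clones, x axis) of each gene list in clones of PαS (circles), OP (triangles) and TTF cells (squares), with all genes tested as the last line. Myc target, glycolysis, splicing and replication lists lay left of 0 in each source, whereas the core and naive pluripotency lists lay left of 0 in PαS clones only, and markers that coincide cover each other.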

How the data were processed

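RNA of 35 samples was hybridised to 1-colour (Cy3) Agilent mouse arrays, and the authors deposited the scanner output with intensity values per spot and a table of log2 values. Per the file headers the probes are placed on build mm7. The authors normalized in GeneSpring GX, and their deposited log2 values have a median of 0 over the samples for each of 41266 probes. On 18958 probes above background on every array, their values had a correlation of 1.0 with those computed here. Levels here are log2 of the processed intensity minus each array's 75th percentile, over 41174 gene probes, with flagged outlier spots left out; 135 probes lacked a value on some of the 10 arrays and the fit used the arrays that had one. Genes were named through accessions for 22897 of 33975 named probes. Probes well above background in all 5 clones of a group were tested with limma 3.58.1 in R 4.3.3 (lmFit, eBayes, Benjamini-Hochberg, threshold 0.05), with the 10 clones alone as the main fit and 6 groups of clones for differences between sources. Single c-Myc values were tested by exact permutation of the clones, where the smallest p possible is 0.00794. The scripts were tested on simulated data.

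The genes named were the 12 of lowest p in each direction without overlap (none passed the adjusted test), the 2 of lowest p in each of 46 lists, and fixed genes such as Mycn and Nanog, each by its brightest probe; some genes are not reported here. These members and lists were chosen with earlier results of these data known. Alternatives were normexp (offset 50) and quantile normalization, the authors' values, other filters, slide and clone number as blocks, and each clone left out; those without the slide 3 arrays, with 6 groups in 1 fit, with outlying backgrounds replaced, all for c-Myc, and OP and TTF clones left out for list medians were chosen after seeing the data. Clone numbers did not pair the samples (correlations of deviations -0.19 to 0.04). Columns not used numbered 0. Nothing states that clones came from separate cultures, so p-values measure the spread between these samples, and 5 arrays a group limit the precision. Promoters were taken from RefSeq (GRCm38.p6).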

Additional observations from a re-analysis of the deposited data

Results flagged for a closer look

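Among 338 groups of 5 clones examined, 8 held a clone far from the other 4, where chance flags about 1 in 20 groups (16.9 here). The gap to the nearest clone as a share of the group's range is given for each. In 3F clones, Ccdc171 was highest in #4 (gap 0.712, level -3.35) and Slc36a3 lowest in #5 (0.822, -7.06). Thbs1 (0.868, 1.08), Oas2 (0.728, -2.50) and Hspd1 (0.751, 6.35) were highest in 3F-PαS-iPS #1. Hsf1 was highest in 3F-PαS-iPS #3 (0.728, 4.44), as was the replication-dependent histone list (0.779, -0.01). Psmc5 was lowest in 4F-PαS-iPS #3 (0.777, 2.60).

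For some named genes the 3F minus 4F difference itself differed between sources in the limma fit of 6 groups of clones. Against OP clones the difference of differences was 1.48 for Mxi1 (adjusted p = 0.0431), -4.08 for St8sia6 (0.0231), -1.94 for Rnf213 (0.0468), -4.46 for Ankrd34b (0.00246), -4.01 for Rims1 (0.0444), -3.16 for Slc36a3 (0.0313), 0.96 for Hsf1 (0.0334) and -3.17 for Mt2 (0.0433). Against TTF clones it was -4.93 for Ankrd34b (adjusted p = 0.000856), -3.82 for Slc36a3 (0.0102) and 1.16 for Hsf1 (0.0121). Ankrd34b and Slc36a3 were above background in no 3F-PαS clone, so the sizes of these differences rest on signal at background. The sign was the same under all 27 or 28 alternatives run for each. Over those alternatives the adjusted p ranged from 0.00633 to 0.148 for Mxi1, from 0.000364 to 0.095 for St8sia6, and from 0.00711 to 0.126 for Rnf213. Without the slide 3 arrays only Ankrd34b kept an adjusted p under 0.05 against OP clones (0.0323), and with the slide as a random block its value against TTF clones was 0.0658. With that block Slc36a3 went to 0.0531 against OP and 0.324 against TTF clones, Hsf1 to 0.0529 and 0.469, and Rims1 to 0.0539 against OP clones, so that none of these passed.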

How the results depend on the processing

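No probe passed in limma under normexp, quantile normalization, the authors' values, no filter or a strict filter, the slide block or without the slide 3 arrays. The exceptions were 6 with 7 groups in 1 fit, 4 with 6 groups of clones, and 0 to 38 with a clone left out. Normexp moved the median of the tested probes from 0.02 to -0.15, a shift of -0.17. With outlying backgrounds replaced (4 spots of 4F-PαS-iPS #3 among the 10 arrays) the normexp median was 0.0076. The 606 probes without overlap (354 of them higher in 3F) became 1039 with normexp (471 and 568), 1448 with no filter (379 and 1069) and 1279 without the slide 3 arrays, and 679 to 2604 with a clone left out (2604 without 3F-PαS-iPS #1, 2242 without 4F-PαS-iPS #3). With outlying backgrounds replaced, the normexp count was 540 (361 and 179). Why the counts moved under the other settings was not tested. Probes that differed between PαS and OP clones (377) numbered 180 with no filter, 31 without the slide 3 arrays and 68 to 2722 with a clone left out, and those against TTF clones (348) numbered 866, 76 and 82 to 1050, and 2 with the slide block.

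With the clone number as a block (replicate block), 0 probes passed, 3903 had an unadjusted p under 0.05, and 476 and 482 probes differed from OP and TTF clones. The block changed no other call.

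The correlation difference was 0.0323 with normexp (exact permutation p = 0.0317). The c-Myc coding probe gave -1.3519 with quantile normalization (exact permutation p = 0.0794), -1.0675 without the slide 3 arrays (p = 0.0536) and -1.7018 to -0.9512 with a clone left out. The probe at the end of the coding region gave -0.9005 with normexp (exact permutation p = 0.0397) and -1.2251 to -0.5898 with a clone left out. The probe of the 3′ untranslated region turned to 0.0795 without the slide 3 arrays.

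Of 2324 values of 120 named genes under an alternative, 22 values of 9 genes turned sign. Without the slide 3 arrays these were Zfp352 (-0.2303) and Ly6a (0.4476). With normexp they were Zfp352 (-0.1853), Zim1 (-0.3049) and Hoxc10 (-0.2862), none of which turned with normexp once outlying backgrounds were replaced. Eif2s3x turned to 0.0622 with all probes and Xist to 0.1766 with outlying backgrounds replaced. With a clone left out, values ran from -0.0036 to 0.2014 for Mycn, from -0.2126 to 0.167 for Mycl, from -0.0081 to 0.3651 for Pdgfra, from -0.3201 to 0.1868 for Ly6a and from -1.5249 to 0.6529 for Xist. Medians kept their sign under every alternative for 23 of 46 lists, among them Myc target growth, core and naive pluripotency, cholesterol, splicing, fibroblast, immediate early and LIF genes. Signal near background limits St8sia6, Cfap161, Ankrd34b, Nipal2, Slc36a3 and Zic2, which lay near it in most 3F clones.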

Other observations

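Without 4F-PαS-iPS #3, 38 probes passed the adjusted test in limma, of which 34 were lower and 4 higher in 3F clones. Fcgr2b, an inhibitory Fc receptor, fell by 3.52 on the log2 scale (adjusted p = 0.0233), and Aard (-3.31), St8sia6 (-2.76), Pim2 (-1.85), a survival kinase, and Uxt (-1.01) also passed. Pbxip1 (1.14) was among those that were higher. Of the 38 probes, 9 lay on the X chromosome (23.7%, against 3.36% of tested probes), 6 on chromosome 1 (15.8%, against 5.86%) and 6 on chromosome 11 (15.8%, against 8.11%). These genes were chosen after their values were seen, and this clone was left out as 1 of 10 such settings. It was the only 4F clone with Ddx3y above background, while 4F-PαS-iPS #2, with the X-linked median at 0.32, stayed in. The part of the sex chromosomes in these calls was not tested.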
